A study of Rattus norvegicus with 4 samples.

Results

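The 89 genes described here encode actins, myosins, tropomyosins and a set of proteins that bind actin. They were chosen by gene symbol from the 17853 genes of a table of RPKM values (read numbers scaled to gene length and to the mapped reads of the library) in rat brain. The symbols were those of the actins, the actin-related proteins, the subunits of the Arp2/3 complex, the cofilins, thymosins, profilins, tropomyosins and alpha-actinins, the myosin heavy and light chains, the transgelins and calponins, and Capg, Gsn, Lcp1, Coro1a, Flna, Msn and Ezr. All 89 were matched to protein-coding entries and none shared a symbol with another. The series measured polyadenylated RNA from brains of rats after intracerebral hemorrhage, which is bleeding inside the brain, and all 4 groups carry this condition. The groups were ipsilateral brain (the side of the bleeding) at 13 months of age, contralateral brain (the opposite side) at 13 months, ipsilateral brain at 21 months and contralateral brain at 21 months. Each group is 1 library made from pooled RNA, so the opposite side of a bleeding rat serves as the reference and no group without hemorrhage was compared. The sources used here give neither the strain, nor the way the bleeding was made, nor the time after it, nor the brain region.

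Actin is the protein of the thin filaments that shape cells and let them move. Free actin monomers are held by thymosins and handed on by profilin, the Arp2/3 complex starts new filaments as branches on old ones, cofilin and gelsolin sever them, and capping proteins stop their growth. Plastin and the alpha-actinins tie filaments together, tropomyosins run along them, and myosins pull on them. In brain the filaments fill dendritic spines and growth cones, microglia and invading leukocytes need them to crawl and to engulf debris, and smooth muscle of the vessel wall contracts with them. Many of these proteins come as close relatives that are used by different cells, so that neurons, white blood cells and muscle can be told apart by which relative they make.

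Marker genes were set beside the tissue label. All 15 markers of neurons, all 10 of oligodendrocytes and all 11 of astrocytes that were measured lay above 0 RPKM in each of the 4 libraries. This is a weak check, since the muscle gene Neb (0.06 to 0.07 RPKM) met it too. The neuron marker Eno2 had at most 0.05 RPKM. The deposited values carry no read counts, so the depth is unknown. With 1 library a group, the values have no error, and the log2 ratios of single libraries below carry no test. Ratios are log2 ratios of RPKM after adding 1, which understates the change of low genes, and a gene is counted as higher from a ratio of 1 upwards and as lower from -1 downwards. A filter kept the 12160 genes whose mean over the 4 libraries reached 1 RPKM. As the one test, limma was fitted to all 4 libraries, 2 per side, with side and age as additive effects. That fit has 1 residual degree of freedom, which is the difference of the side ratio between the ages, so it leans on a spread pooled over genes. Its p-values measure only the spread between these pooled libraries. With no filter on low values it called 0 of all 17853 genes, and so 0 of the 89. "Rose" and "fell" below refer to this fit at a Benjamini-Hochberg adjusted p under 0.05. Over all tested genes 13.3% rose and 0.814% fell, to be set beside the counts of calls below.

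Of the 89 genes 64 passed the filter and 25 did not. Below the filter 21 genes were under 1 RPKM in all 4 libraries. They include the muscle myosin heavy chain genes Myh1, Myh3, Myh6, Myh7, Myh13 and Myh15 (at most 0.74 RPKM), the muscle light chain genes Myl1, Myl2, Myl3, Myl7 and Myl10 (at most 0.51 RPKM), and Actn3, the alpha-actinin of fast skeletal muscle (at most 0.19 RPKM). Myo5c, Myo19, Myo7a and the smooth muscle calponin gene Cnn1 reached 1 RPKM in at least 1 library and 1.25 RPKM at most. Myo1g was the 1 gene that passed only because it was high ipsilaterally, and it had to differ between the sides. The relatives Myh9, Myl6, Actc1 and Cnn2 were not analysed here.

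The bleeding side was set against the opposite side at each age to ask which of these genes differ there. At 13 months 15 of the 64 genes were higher ipsilaterally, where 7.19% of all tested genes were, and 0 were lower, where 0.0658% were. At 21 months 13 were higher, against 5.61% of all genes, and 0 were lower, against 0.288%. The shares of the 64 genes were 23.4% and 20.3%. At both ages 12 were higher, 18.8% of the 64, against 4.75% of all genes. Any difference above 0 was seen for 43 of the 64 genes at 13 months (50.8% of all genes) and for 41 at 21 months (60.8% of all genes). Both ratios were above 0 for 35 genes, 54.7% of the 64 against 38.4% of all genes, and both below 0 for 15 genes, 23.4% against 26.5%. The 12 genes higher at both ages were Capg, Myo1f, Lcp1, Arpc1b, Tagln, Tagln2, Msn, Myo1g, Tpm4, Flna, Pfn1 and Myl12a. In limma 29 of the 64 rose and 0 fell, where 13.3% of all genes rose and 0.814% fell, and at an unadjusted p under 0.05 there were 29 higher and 6 lower. With libraries scaled without mitochondrially encoded genes 20 of these 29 remained, and of all 12160 tested genes 1173 rose in place of 1618. The 9 lost were Arpc2, Arpc4, Arpc5, Actr3, Cfl1, Gsn, Tmsb10, Tpm3 and Myl9, at limma adjusted p from 0.055 to 0.14. The median log2 ratio of the 64 genes was 0.16 at 13 months and 0.32 at 21 months, beside 0.01 and 0.09 for all genes. Across the 64 genes, which are not independent replicates, Pearson r between the log2 ratios of the 2 ages was 0.92, and across all genes it was 0.77.

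**Figure D1:**
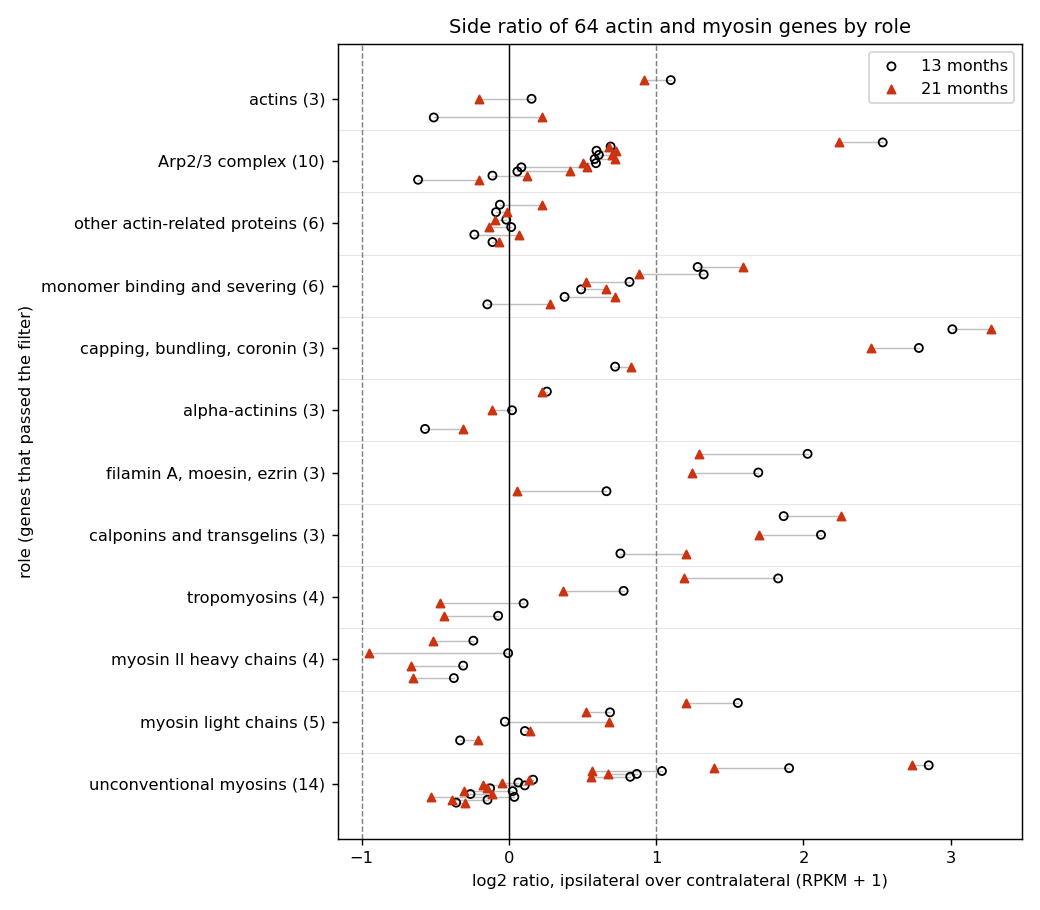
Ratio of the sides, ipsilateral over contralateral, as log2 of RPKM plus 1 (x axis) for the 64 genes that passed the filter, grouped by role (y axis, number of genes in brackets), with circles for 13 months, triangles for 21 months and dashed lines at -1 and 1. Capg, among the capping, bundling and coronin genes, has the highest ratios (3.01 and 3.28), while the myosin II heavy chains lie below 0 at both ages.

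Summed over the 89 genes, the level was 9120 RPKM ipsilaterally and 4821 RPKM contralaterally at 13 months, and 8003 and 4803 RPKM at 21 months. This was 2.31% and 1.23% of the summed RPKM of all genes at 13 months and 1.99% and 1.24% at 21 months. Both contralateral libraries lay close together and both ipsilateral libraries above them. Markers of microglia and macrophages moved with this difference: 13 of 14 measured markers rose (all but Tmem119), and their summed level was 816 and 221 RPKM at 13 months and 788 and 197 RPKM at 21 months, ipsilateral first, with none at 0. Cd68, a lysosomal protein of phagocytes, was highest among them, at log2 ratios of 3.85 and 3.68. In bulk tissue, more cells of a type and more RNA per cell cannot be told apart, and the part of these markers in the results was not tested. Of lymphocyte and neutrophil markers only 3 each passed the filter, Cd2 and Cd8a through the ipsilateral side alone (contralaterally at most 0.51 RPKM), so those had to differ. The full lists summed to 49.5 and 61.5 RPKM ipsilaterally at 13 months and to 31.2 and 36.6 RPKM at 21 months, against at most 8.74 RPKM contralaterally. Mitochondrially encoded genes took 18.5% and 23.3% of all RPKM at 13 months and 20.6% and 24.1% at 21 months, ipsilateral first, and the ratio of Actb at 13 months moved from 1.10 to 0.997 when libraries were scaled without them.

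**Figure D2:**
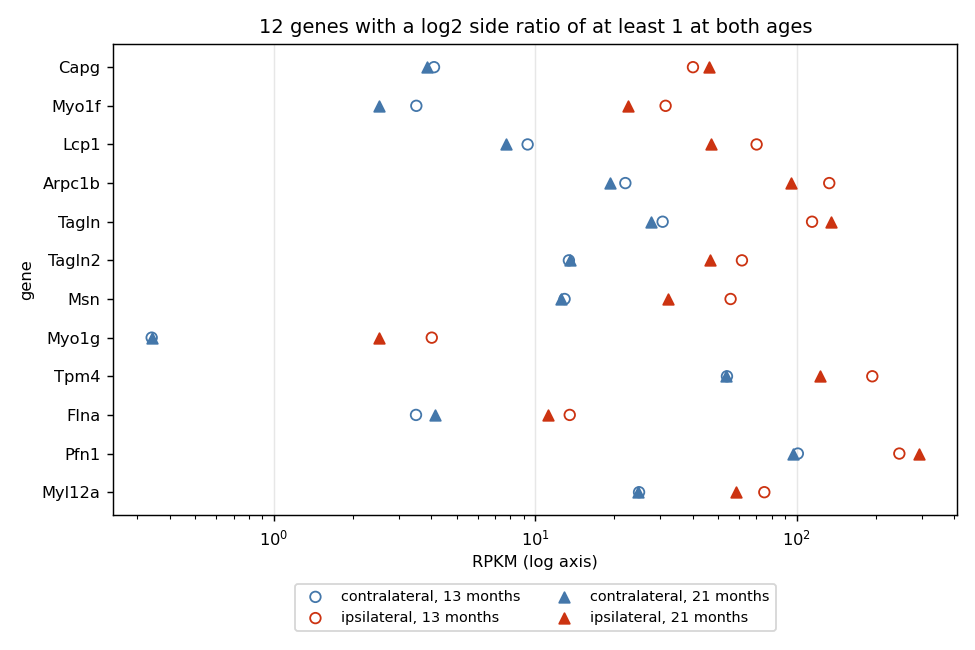
RPKM (x axis, log scale) of the 12 genes with a log2 side ratio of at least 1 at both ages (y axis), each point being 1 library, blue for contralateral, red for ipsilateral, circles for 13 months and triangles for 21 months. For each gene both red points lie to the right of both blue points, from Myo1g at 0.34 RPKM contralaterally to Pfn1 at 293 RPKM ipsilaterally at 21 months.

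Among the actins, the cytoplasmic beta-actin rose while the muscle actins did not pass. Actb (ENSRNOG00000034254, chromosome 12) had 1141 and 532 RPKM at 13 months and 968 and 511 RPKM at 21 months, ipsilateral first. It is often used as a reference gene, and here the fitted log2 rise was 1.01 ± 0.17 (SE, with 2 libraries on each side, limma adjusted p = 0.00013). Acta2, the actin of vascular smooth muscle, had 16.1 and 14.3 RPKM at 13 months and 13.7 and 15.9 RPKM at 21 months, so its order between the sides switched with age. Acta1, the skeletal muscle actin, had 3.66 and 5.64 RPKM at 13 months and 5.52 and 4.59 RPKM at 21 months, again with opposite orders. Actg2, the actin of gut smooth muscle, stayed under 1 RPKM. Actg1, the other cytoplasmic actin, is known as abundant in brain, yet the table listed 0.57, 0.30, 0.63 and 0.53 RPKM. Actin genes are nearly identical in their coding parts and have many copies, and how the authors counted shared reads is not stated in the sources used here, so the split between Actb and Actg1 is uncertain.

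Actin genes are textbook targets of serum response factor, which binds the CArG box, a short stretch rich in A and T. RefSeq promoter sequences (build GRCr8) were found for 74 of the 89 genes, Actb and Tagln not among them. Within the 250 bases before the start, 5 of these 74 genes held a CArG box on either strand. Counted per promoter, 5 of the 80 promoters of these genes held one (6.25%), and 501 of all 33469 promoters of the same length did (1.5%). The matches with 2 classic actin genes, Acta1 and Actg1, and with Myo1e, the gene of the 5 that rose, are shown because they let the letters be compared. The capitals mark the CArG box, and each line runs 5′ to 3′ on the strand of the gene.
Acta1 (GRCr8, chr19:68784254-68784313, minus strand, box 94 to 85 bases before the start): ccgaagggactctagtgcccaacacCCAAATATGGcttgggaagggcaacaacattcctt
Actg1 (GRCr8, chr10:106121007-106121066, minus strand, box 90 to 81 bases before the start): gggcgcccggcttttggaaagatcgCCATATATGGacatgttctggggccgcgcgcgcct
Myo1e (GRCr8, chr8:79768707-79768766, plus strand, box 96 to 87 bases before the start): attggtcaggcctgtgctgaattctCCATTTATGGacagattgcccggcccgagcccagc
The other matches were Myl3 and Myh15, which lay below the filter. A match describes letters only. Srf itself, the gene of the factor, had 8.58 and 8.98 RPKM at 13 months and 11.1 and 8.46 RPKM at 21 months and did not pass (log2 change 0.15, limma adjusted p = 0.69). Its cofactor gene Mkl1 did not pass either, with 4.03 and 4.48 RPKM at 13 months and 5.92 and 3.76 RPKM at 21 months. In all, 0 of 6 genes of this factor, its cofactors and partners rose or fell. Over all genes 13.3% rose and 0.814% fell, so 0 of 6 is near the shares of all genes.

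Genes whose products bind actin monomers or sever filaments were the most abundant of the set. Tmsb4x (ENSRNOG00000047931, chromosome X), thymosin beta 4, which holds monomers in reserve, had 3444 and 1377 RPKM at 13 months and 2744 and 1490 RPKM at 21 months, and it rose by 1.10 ± 0.18 on the log2 scale (SE, limma adjusted p = 6.8e-05). It ranked 11th and 13th of all genes ipsilaterally and 21st and 19th contralaterally, 13 months first, and alone made up 28.6% to 37.8% of the summed RPKM of the 89 genes. Tmsb10, a second thymosin, had 771 and 437 RPKM at 13 months and 564 and 392 RPKM at 21 months and rose by 0.67 ± 0.17 (limma adjusted p = 0.0082). Pfn1, profilin 1, which loads monomers onto growing ends, had 247 and 101 RPKM at 13 months and 293 and 97.1 RPKM at 21 months. It rose by 1.43 ± 0.17 (limma adjusted p = 1.6e-06), and its ratio was larger at 21 months (1.59) than at 13 months (1.28). Both thymosins showed the reverse order, with the larger ratio at 13 months.

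Cfl1, the cofilin of non-muscle cells, had 583 and 448 RPKM at 13 months and 702 and 425 RPKM at 21 months and rose by 0.55 ± 0.17 (limma adjusted p = 0.035, and 0.0502 under median-ratio scaling). Cfl2, the muscle cofilin, lay between 13.95 and 17.1 RPKM in all 4 libraries, with sides in opposite orders at the ages, and did not pass. Gsn, gelsolin, which severs and caps filaments and in brain is abundant in oligodendrocytes, had 63.4 and 44.9 RPKM at 13 months and 71.1 and 44.7 RPKM at 21 months and rose by 0.57 ± 0.17 (limma adjusted p = 0.023). Scaled without mitochondrially encoded genes, Tmsb10, Cfl1 and Gsn did not pass (limma adjusted p = 0.060, 0.14 and 0.10). Pfn2, the profilin known from neurons, was listed at 0.22 to 0.61 RPKM, below the filter. For thymosins, profilin 1 and cofilin 1, reads may be shared with processed copies elsewhere in the genome, and the sources used here do not give their assignment.

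The Arp2/3 complex is built from 7 subunits, some of which can be supplied by either of a pair of related genes. Of its 10 genes 6 rose and 0 fell, where 13.3% and 0.814% of all genes did. When libraries were scaled without mitochondrially encoded genes 2 of the 10 rose (Arpc1b and Arpc3), and 1173 of all 12160 tested genes did. Arpc1b (ENSRNOG00000000991, chromosome 12), the form of the p41 subunit that is prominent in blood cells, had 133 and 22.1 RPKM at 13 months and 94.7 and 19.3 RPKM at 21 months. It rose by 2.39 ± 0.17 on the log2 scale (SE, limma adjusted p = 8.5e-10), a 6.03-fold and a 4.91-fold ratio of RPKM. Its relative Arpc1a had 67.9 and 73.5 RPKM at 13 months and 75.8 and 69.7 RPKM at 21 months, with a fitted change of 0.00 ± 0.17. The 2 sides therefore differed in which form led: Arpc1b was 66.2% and 55.5% of the sum of the pair ipsilaterally and 23.1% and 21.6% contralaterally, 13 months first.

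Arpc2, Arpc3 and Arpc4, which have no relative among the 10 genes, changed by nearly the same amount. Arpc2 had 117 and 76.6 RPKM at 13 months and 120.4 and 73.8 RPKM at 21 months, a rise of 0.65 ± 0.17 (SE, limma adjusted p = 0.0089). Arpc3 had 224 and 138 RPKM at 13 months and 216 and 135 RPKM at 21 months, a rise of 0.68 ± 0.17 (limma adjusted p = 0.0061). Arpc4 had 63.9 and 42.0 RPKM and 68.8 and 41.1 RPKM, a rise of 0.66 ± 0.17 (limma adjusted p = 0.0083). Their fitted changes differed by less than their SE. Scaled without mitochondrially encoded genes, Arpc2 and Arpc4 did not pass (limma adjusted p = 0.056 and 0.055) and Arpc5 was at 0.059. Arpc5, at 68.7 and 45.6 RPKM and 68.4 and 41.2 RPKM, rose by 0.65 ± 0.17 (limma adjusted p = 0.0095), whereas its relative Arpc5l (26.3 and 25.3, 35.4 and 26.4 RPKM) did not pass. The sum of Arpc1a and Arpc1b was 2.10-fold and 1.92-fold higher ipsilaterally at 13 and 21 months, more than the 1.53-fold and 1.63-fold of Arpc2. No test was made of that difference.

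The 2 actin-like subunits of the complex were less alike. Actr3 had 176 and 117 RPKM at 13 months and 154 and 109 RPKM at 21 months and rose by 0.55 ± 0.17 (SE, limma adjusted p = 0.032, and 0.12 when scaled without mitochondrially encoded genes). Actr3b, its relative known from brain, had 22.7 and 35.3 RPKM at 13 months and 28.0 and 32.4 RPKM at 21 months, lower ipsilaterally at both ages and with the lowest log2 ratio of the 64 genes at 13 months (-0.62), but did not pass (limma adjusted p = 0.15). Actr2 had 91.2 and 86.0 RPKM at 13 months and 109 and 75.1 RPKM at 21 months and did not pass (limma adjusted p = 0.32).

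**Figure D3:**
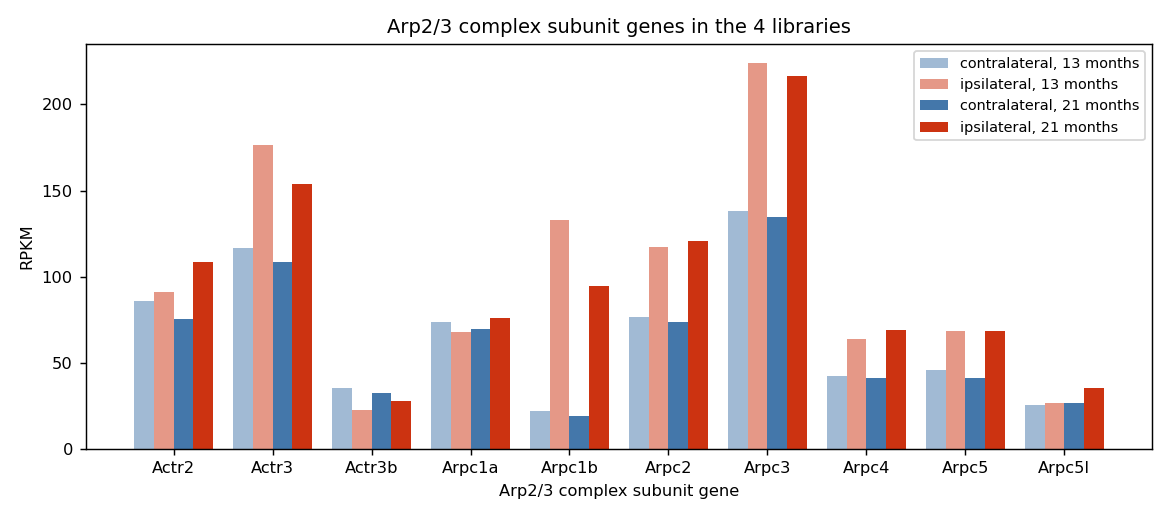
RPKM (y axis) of the 10 Arp2/3 subunit genes (x axis) in the 4 libraries, blue bars for contralateral and red for ipsilateral, pale for 13 months and dark for 21 months. Arpc1b has a wide gap between the sides (133 against 22.1 RPKM at 13 months) while its relative Arpc1a is level (67.9 against 73.5 RPKM).

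The other actin-related proteins belong to dynactin (Actr1a, Actr1b, Actr10) or to chromatin remodelling complexes (Actr5, Actr6, Actr8). Of these 6 genes 0 rose and 0 fell in limma, also at an unadjusted p under 0.05. Over all genes 13.3% rose and 0.814% fell, so 0 of 6 is near the shares of all genes. Their log2 ratios lay between -0.24 (Actr1b at 13 months) and 0.22 (Actr5 at 21 months), with medians of -0.07 and -0.04.

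Genes for capping and bundling proteins of white blood cells were among those with the largest fitted changes. Capg (ENSRNOG00000013668, chromosome 4), a macrophage protein that caps filament ends, had 40.0 and 4.09 RPKM at 13 months and 46.0 and 3.85 RPKM at 21 months. It rose by 3.14 ± 0.17 on the log2 scale (SE, limma adjusted p = 1.5e-11), the largest fitted change of the 64 genes. Lcp1 (ENSRNOG00000010319, chromosome 15), the leukocyte plastin that bundles filaments, had 70.1 and 9.33 RPKM at 13 months and 46.8 and 7.70 RPKM at 21 months and rose by 2.62 ± 0.17 (limma adjusted p = 2.4e-10). Coro1a, a coronin of leukocytes that is also made in neurons, had 69.0 and 41.5 RPKM at 13 months and 65.7 and 36.6 RPKM at 21 months, a smaller rise of 0.77 ± 0.17 (limma adjusted p = 0.0021). Capg was higher at 21 than at 13 months on the ipsilateral side, and Lcp1 was lower.

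Filamin A and the linkers of filaments to the membrane were unequal. Msn, moesin, the linker of leukocytes and endothelium, had 55.8 and 12.9 RPKM at 13 months and 32.0 and 12.5 RPKM at 21 months and rose by 1.66 ± 0.19 (SE, limma adjusted p = 6.6e-07). Its relative Ezr, ezrin, known from astrocyte processes and epithelia, had 77.7 and 48.7 RPKM at 13 months but 55.9 and 53.7 RPKM at 21 months and did not pass (limma adjusted p = 0.25). Flna, which crosslinks filaments into networks, had 13.5 and 3.49 RPKM at 13 months and 11.2 and 4.14 RPKM at 21 months and rose by 1.47 ± 0.18 (limma adjusted p = 1.6e-06). All 3 had a smaller side ratio at 21 months. Markers of endothelium rose in 2 of 10, near the 13.3% of all genes that rose. The 10 summed to 62.6 and 40.8 RPKM at 13 months and 52.5 and 41.9 RPKM at 21 months, none at 0. The part of these markers in the values of the 3 genes was not tested.

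The calponin and transgelin genes that passed the filter all rose. Tagln (ENSRNOG00000017628, chromosome 8), transgelin or SM22, a marker of smooth muscle, had 114 and 30.7 RPKM at 13 months and 136 and 27.7 RPKM at 21 months, a rise of 2.06 ± 0.17 (SE, limma adjusted p = 9.6e-09). Tagln2, its relative in leukocytes and other cells, had 61.6 and 13.4 RPKM at 13 months and 46.4 and 13.6 RPKM at 21 months, a rise of 1.91 ± 0.18 (limma adjusted p = 3.4e-08). Cnn3, a calponin found in astrocytes and neurons, had 124 and 72.9 RPKM at 13 months and 163 and 70.3 RPKM at 21 months, a rise of 0.98 ± 0.18 (limma adjusted p = 0.00026). Astrocyte markers rose in 2 of 11, where 13.3% of all genes rose. These 2 were Gfap, by 1.61, and Vim, by 2.24 on the log2 scale. The 11 summed to 2719 and 1793 RPKM at 13 months and 2956 and 1616 RPKM at 21 months, none at 0. Gfap and Vim held a large part, with 1151 and 443 RPKM and 571 and 107 RPKM at 13 months. The median log2 ratio of the 11 was -0.22 at 13 months and 0.13 at 21 months, beside 0.01 and 0.09 for all genes. The part of these markers in the values of Cnn3 and Ezr was not tested. Tagln and Cnn3 had their larger ratio at 21 months and Tagln2 at 13 months.

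Markers of the vessel wall were set beside Tagln. Of 11 markers of vessel muscle and pericytes that passed the filter, none of them an actin or myosin gene of the set, 0 rose and 0 fell in limma. Over all genes 13.3% rose and 0.814% fell, so 0 of 11 is near the shares of all genes. Des, desmin, the intermediate filament of muscle, chosen after its values were seen, came nearest, with 16.2 and 8.02 RPKM at 13 months and 10.1 and 9.38 RPKM at 21 months (limma adjusted p = 0.088). The full list of 13 measured markers summed to 78.2 and 65.8 RPKM at 13 months and to 71.4 and 75.1 RPKM at 21 months. Within the set, the smooth muscle gene Myl9 rose (0.61, limma adjusted p = 0.016), Acta2 did not pass, Cnn1 was listed at 0.75 to 1.05 RPKM, and Myh11, the smooth muscle myosin heavy chain, had 11.4 and 11.5 RPKM at 13 months and 7.21 and 14.9 RPKM at 21 months. Fibroblast markers rose in 5 of 7 that passed, with the full list of 8 summing to 58.4 and 24.7 RPKM at 13 months and 42.2 and 24.7 RPKM at 21 months and 1 marker at 0 in each ipsilateral library; their part in the Tagln values was not tested.

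Tropomyosin genes split into a pair that rose and a pair that did not. Tpm4 had 194 and 54.0 RPKM at 13 months and 122.9 and 53.4 RPKM at 21 months and rose by 1.51 ± 0.18 (SE, limma adjusted p = 1.8e-06). Tpm3 had 162 and 93.8 RPKM at 13 months and 114 and 88.7 RPKM at 21 months and rose by 0.57 ± 0.17 (limma adjusted p = 0.030, and 0.13 when scaled without mitochondrially encoded genes). Tpm1 had 53.9 and 56.8 RPKM at 13 months and 41.0 and 55.9 RPKM at 21 months, and Tpm2 had 26.8 and 24.9 RPKM at 13 months and 17.7 and 24.9 RPKM at 21 months; neither passed (limma adjusted p = 0.42 and 0.60). All 4 tropomyosin genes were lower at 21 than at 13 months ipsilaterally, while contralaterally each differed by at most 0.08 on the log2 scale. Each tropomyosin gene gives several isoforms, which values per gene do not separate.

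Of the alpha-actinin genes 0 of 3 passed the test, where 13.3% of all genes rose and 0.814% fell. Actn1 was level at 28.8 to 31.5 RPKM in the 4 libraries. Actn4 had 55.4 and 46.2 RPKM at 13 months and 57.6 and 49.1 RPKM at 21 months, log2 ratios of 0.26 and 0.23 (limma adjusted p = 0.43). Actn2, the form of dendritic spines and of striated muscle, had 7.11 and 11.04 RPKM at 13 months and 8.88 and 11.3 RPKM at 21 months, lower ipsilaterally at both ages (log2 ratios of -0.57 and -0.31, limma adjusted p = 0.10).

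The heavy chains of myosin II, the motor of contraction, lay below 0 in both side ratios for all 4 genes that passed the filter. Over all genes 26.5% did. Of the 4 heavy chain genes 0 passed the test, where 13.3% of all genes rose and 0.814% fell. Their relative Myh9 was not analysed, so the non-muscle heavy chains are not fully covered. Myh10, non-muscle myosin IIB and the leading form in neurons, had 70.3 and 91.4 RPKM at 13 months and 59.9 and 94.7 RPKM at 21 months. Its fitted change was -0.51 ± 0.17 on the log2 scale (SE, limma adjusted p = 0.0503), just short of the threshold, and it passed under median-ratio scaling (0.017) and without mitochondrially encoded genes (0.040). Myh14, non-muscle myosin IIC, had 17.3 and 20.6 RPKM at 13 months and 15.1 and 22.0 RPKM at 21 months (limma adjusted p = 0.18). Myh7b had 2.49 and 3.33 RPKM at 13 months and 1.92 and 3.63 RPKM at 21 months (limma adjusted p = 0.069). Myh11, the smooth muscle form given above, was level at 13 months (-0.01) and had the lowest ratio of all 64 genes at 21 months (-0.95, limma adjusted p = 0.13). At 21 months the ratio of each of the 4 was lower than at 13 months. Neuronal markers, of which 2 of 14 fell (Nefm and Nefh), summed to 1704 and 2359 RPKM at 13 months and 1955 and 2295 RPKM at 21 months, none of 15 at 0, and their part in these values was not tested.

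The light chains showed a different pattern. Myl12a, a regulatory light chain of non-muscle myosin, had 75.1 and 24.9 RPKM at 13 months and 58.4 and 24.8 RPKM at 21 months and rose by 1.38 ± 0.17 (SE, limma adjusted p = 2.9e-06). Myl12b, also on chromosome 9 and nearly identical in protein, had 56.9 and 58.0 RPKM at 13 months and 73.6 and 45.5 RPKM at 21 months and did not pass (limma adjusted p = 0.32), and how reads shared by these 2 were assigned is not stated. Their sum was 132 and 82.9 RPKM at 13 months and 132 and 70.3 RPKM at 21 months, 1.59-fold and 1.88-fold higher ipsilaterally. Myl9, the regulatory chain of smooth muscle, which did not pass when libraries were scaled without mitochondrially encoded genes (limma adjusted p = 0.080), had 20.1 and 12.1 RPKM at 13 months and 22.0 and 15.0 RPKM at 21 months and rose by 0.61 ± 0.17 (limma adjusted p = 0.016). Myl6b, an essential light chain, had 29.3 and 37.1 RPKM at 13 months and 34.8 and 40.4 RPKM at 21 months (limma adjusted p = 0.37), and Myl4 lay between 0.93 and 1.46 RPKM.

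Unconventional myosins, which move membranes and cargo, were the largest group, with 23 genes, 14 of them past the filter. Of these 14 genes 5 rose and 0 fell, where 13.3% and 0.814% of all genes did. Myo1f (ENSRNOG00000008409, chromosome 7), a membrane-linked myosin of leukocytes, had 31.5 and 3.50 RPKM at 13 months and 22.5 and 2.53 RPKM at 21 months and rose by 2.79 ± 0.17 on the log2 scale (SE, limma adjusted p = 7.1e-11). Myo1g, a second class I myosin of blood cells, had 4.01 and 0.34 RPKM at 13 months and 2.51 and 0.34 RPKM at 21 months and rose by 1.65 ± 0.18 (limma adjusted p = 3.7e-07). It passed the filter only through its ipsilateral values, so it had to differ and adds nothing to the count of 5. Myo1c, a more widely made class I myosin, had 10.7 and 4.69 RPKM at 13 months and 8.73 and 5.59 RPKM at 21 months and rose by 0.80 ± 0.18 (limma adjusted p = 0.0023). The other 2 that rose were Myo1e, at 13.8 and 7.11 RPKM and 11.3 and 6.68 RPKM, by 0.77 ± 0.17, and Myo9b, a myosin that acts in macrophage movement, at 14.8 and 7.95 RPKM and 12.8 and 8.35 RPKM, by 0.69 ± 0.17. The class I gene Myo1d (7.13 to 7.61 RPKM) did not pass.

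Cargo carriers of neurons did not rise. Myo5a, which hauls endoplasmic reticulum into spines, had 29.9 and 29.1 RPKM at 13 months and 19.7 and 28.9 RPKM at 21 months, level at the first age and lower ipsilaterally at the second (log2 ratios of 0.04 and -0.53, limma adjusted p = 0.46). Myo5b had 10.97 and 14.4 RPKM at 13 months and 11.04 and 13.8 RPKM at 21 months (limma adjusted p = 0.26), and Myo6, the motor that walks towards the minus end, had 15.6 and 17.1 RPKM and 14.9 and 16.7 RPKM (limma adjusted p = 0.69). Myo16, Myo18a, Myo9a and Myo10 had log2 ratios between -0.31 and 0.16 and did not pass. Among the 9 unconventional myosins below the filter, Myo7a, chosen after its values were seen, had 1.16 and 0.25 RPKM at 13 months, then 0.69 and 0.25 RPKM at 21 months.

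Related genes were also set against each other within each library, which cancels any scaling of the library. Of 20 pairs 16 had both genes in the table, and in 14 both were at 1 RPKM or more in every library. The pairs and the gene named first were chosen with earlier results known, and some share a gene (Tpm1, Actn2), so their common direction is no result, and the values are given as a description. The ratio of Arpc1b to Arpc1a was 1.96 ipsilaterally and 0.30 contralaterally at 13 months, and 1.25 and 0.28 at 21 months. That of Tpm4 to Tpm1 was 3.61 and 0.95 at 13 months and 3.0 and 0.96 at 21 months, and that of Msn to Ezr was 0.72 and 0.26 and then 0.57 and 0.23. For the first 2 pairs the leading gene changed with the side, whereas Ezr led Msn in all 4 libraries. Myo1f was at 0.12 and 0.088 of the level of Myo5a contralaterally and at 1.05 and 1.14 of it ipsilaterally, 13 months first. Actr3 to Actr3b was 7.79 and 3.31 at 13 months and 5.49 and 3.35 at 21 months, ipsilateral first. Tmsb10 to Tmsb4x was lower ipsilaterally at both ages (0.22 against 0.32, and 0.21 against 0.26), and Tagln2 to Tagln went up at 13 months (0.54 against 0.44) and down at 21 months (0.34 against 0.49). No test was made of these ratios.

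**Figure D4:**
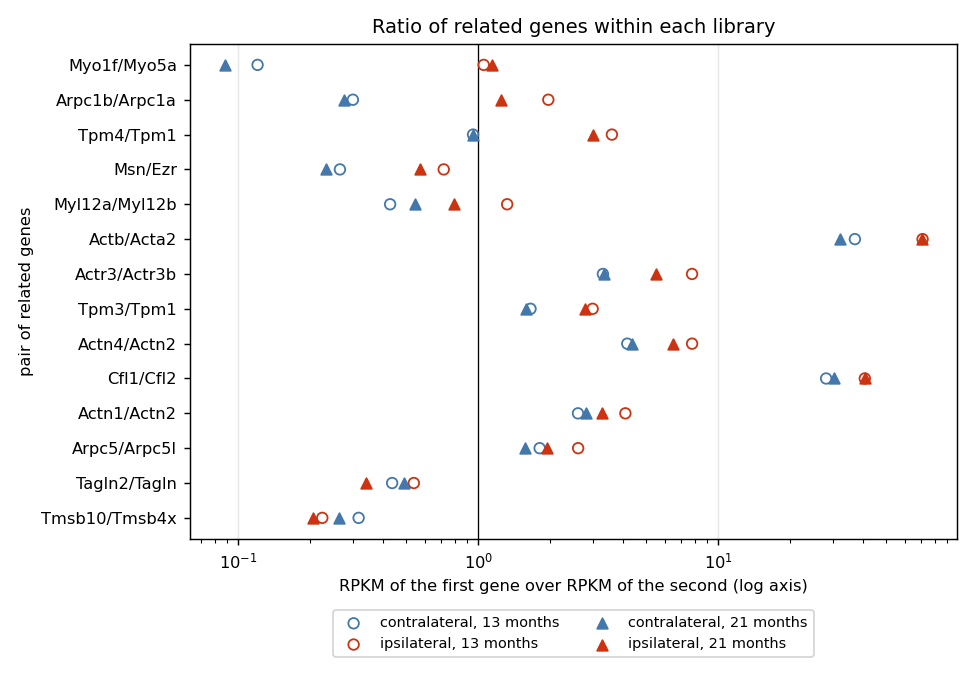
RPKM of the first gene over RPKM of the second (x axis, log scale) for 14 pairs of related genes (y axis) in the 4 libraries, blue for contralateral, red for ipsilateral, circles for 13 months and triangles for 21 months. The pairs at the top shift furthest to the right ipsilaterally, Arpc1b to Arpc1a from 0.30 to 1.96 at 13 months, and the line at 1 marks equal levels.

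The ages were compared on each side to ask how old rats differ from adult ones. These comparisons use the same 4 libraries as the side comparisons and are not independent of them. On the contralateral side 0 of the 64 genes were higher and 0 lower at 21 months, where 0.206% and 0.132% of all genes were, and all ratios lay between -0.35 (Myo1f) and 0.35 (Myh11). On the ipsilateral side 0 were higher and 0 lower as well, against 0.321% and 0.658% of all genes, with a wider range from -0.78 (Msn) to 0.48 (Acta1). The ratio was above 0 for 25 genes contralaterally (40.8% of all genes) and for 27 ipsilaterally (53.9% of all genes). After Msn the lowest were Tpm4 (-0.66), Myh11 (-0.60), Lcp1 (-0.57) and Myo5a (-0.57), and after Acta1 the highest were Arpc5l (0.42), Cnn3 (0.40) and Myl12b (0.37). Of the 29 genes that rose with the side, 20 were lower at 21 months ipsilaterally (median -0.24) and 22 contralaterally (median -0.05). Over all tested genes the ratio was above 0 for 53.9% ipsilaterally and 40.8% contralaterally. The 29 were chosen on the same 4 libraries, and the share among all 1618 genes that rose was not counted. No age change of the set can be read from these counts.

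The difference of the side ratio, 21 months minus 13 months, passed 1 or -1 in 0 of the 64 genes, against 0.65% and 0.757% of all genes, and was above 0 in 26, against 55.7% of all genes. It was lowest for Myh11 (-0.95), Msn (-0.73), Tpm4 (-0.64) and Ezr (-0.61), and highest for Acta1 (0.73), Myl12b (0.71), Cnn3 (0.45) and Actr2 (0.44). Of the 29 genes that rose, 19 had the larger side ratio at 13 months and 10 at 21 months, with a median difference of -0.18. Among all 1618 genes that rose the larger ratio was at 13 months for 1096, with a median of -0.19, so the set lay close to the rest here. With 1 library per group none of these differences was tested.

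**Figure D5:**
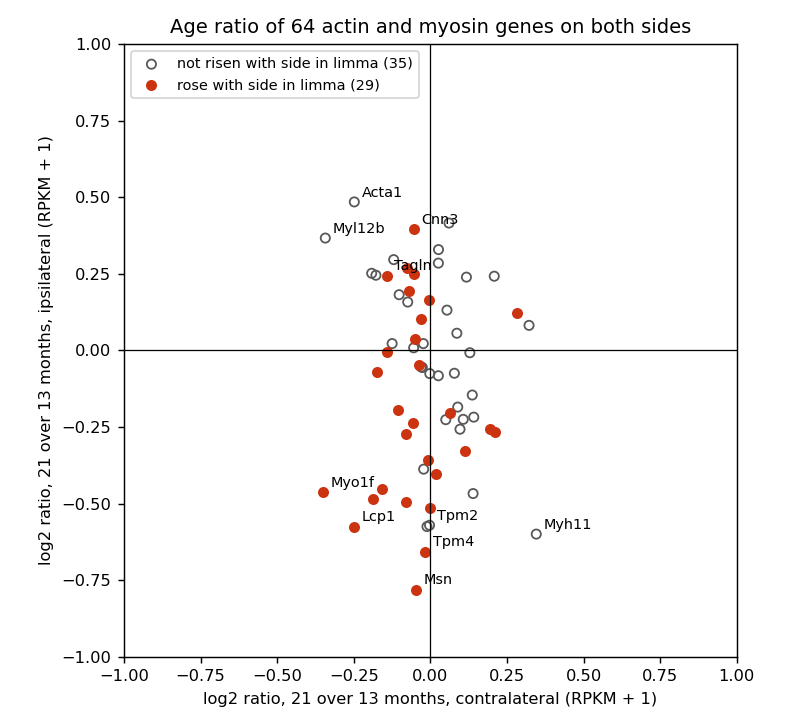
Log2 ratio of RPKM after adding 1 at 21 over 13 months, on the contralateral side (x axis) and on the ipsilateral side (y axis), for the 64 genes that passed the filter, each point being 1 gene, red for the 29 that rose with the side in limma. All points lie within 0.35 of 0 on the x axis, while the y axis reaches from -0.78 (Msn) to 0.48 (Acta1).

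Regulators of the filaments outside the set were taken from a list of 90 genes, of which 88 were measured and 84 passed the filter. Of the 84 genes 29 rose and 0 fell in limma, where 13.3% and 0.814% of all genes did. At 13 and 21 months 13 and 10 were higher, against 7.19% and 5.61% of all genes. The medians were 0.17 and 0.25, beside 0.01 and 0.09 for all genes. Rac2, a small GTPase of blood cells, had the largest change, with 25.4 and 3.28 RPKM at 13 months and 21.8 and 1.60 RPKM at 21 months, ipsilateral first. Gmfg, which prunes Arp2/3 branches in blood cells, had 107 and 13.3 RPKM, then 54.3 and 9.41 RPKM. Hcls1, the leukocyte form of cortactin, which steadies such branches, had 86.7 and 12.6 RPKM, then 50.9 and 9.88 RPKM. These 3 rose by 2.88, 2.66 and 2.47 on the log2 scale. Chosen after their values were seen, Was, the Arp2/3 activator of blood cells, rose by 1.76 and Nckap1l, a subunit of the WAVE complex in blood cells, by 1.83. At the other end Coro2b, a coronin of the nervous system (30.7 and 41.6 RPKM, 29.2 and 42.2 RPKM, ipsilateral first), the formin gene Daam2 and the plastin gene Pls1 had fitted changes of -0.47, -0.43 and -0.41 and did not pass (limma adjusted p = 0.073, 0.13 and 0.14).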

How the data were processed

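Per the labels' protocols, RNA from 9 rat brains was pooled before oligo(dT) selection and directional library preparation; which brains entered which library is not stated. The authors deposited RPKM values rounded to 2 decimals, with no counts. Tools listed in the submitters' processing notes are TopHat2, edgeR and cutadapt, without roles, beside the human build GRCh38, although the identifiers are rat, so the build is not settled. The sources used here do not give the counting or the gene lengths. Whole reads could not be recovered: the lower quartile of olfactory receptor values above 0 was 0.02 RPKM in each library, near the rounding step. Columns were matched to samples by age and side code.

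RPKM was analysed as log2(RPKM + 1) for genes whose mean reached 1 RPKM. limma 3.58.1 (R 4.3.3, lmFit and eBayes, side plus age, two-sided) was adjusted by Benjamini-Hochberg over 12160 genes. It had 1 residual and 19.5 prior degrees of freedom. The fit was also run on simulated data with the same spread for every gene, which cannot show how far its p-values hold here. Named genes were 50 measured genes of a fixed list, the 12 highest and 12 lowest by side, the 4 highest and 4 lowest of each comparison, the extremes of each role, genes with opposite side ratios of at least 0.3, and the 10 most abundant contralaterally; of other lists the 3 highest and lowest. Other genes of the set, Myo1e and Myo9b among them, and further list genes were named after their values were seen, to account for each role; 1 gene that the rule names is not reported here. The members, roles, pairs and lists were chosen with earlier results of these data known. Alternatives were a pseudocount of 0.1, no filter, a mean of at least 5 RPKM, scaling by median ratio, scaling without mitochondrially encoded genes, 1 entry per symbol and a contralateral mean of at least 1 RPKM. Other marker lists: cardiac and skeletal muscle markers, pituitary and pineal markers, and ependymal and choroid plexus markers.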

Additional observations from a re-analysis of the deposited data

How the results depend on the processing

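The counts of genes higher ipsilaterally kept within 1.5 times of 15, 13 and 12 (13 months, 21 months and both) under all 7 alternatives, and counts between the ages stayed at 0. Without the filter limma gave 0 rising genes in place of 29 (31 at an unadjusted p under 0.05), with 1.56 prior degrees of freedom in place of 19.5, and the median ratio at 21 months was 0.067. With a mean of at least 5 RPKM the medians were 0.38 and 0.50, beside -0.01 and 0.07 for all genes. With a pseudocount of 0.1, 1 gene was lower at 21 months (Myh11, -1.03) and 1 fell in limma (Myh7b), with 25 rising. Of all tested genes 1590 then rose and 102 fell, in place of 1618 and 99. Under median-ratio scaling 1 gene was lower at 21 months and 3 fell (Myh10, Actn2, Myh7b), with 27 rising (Actr3 and Cfl1 lost). Of all tested genes 1541 rose and 248 fell. The median at 21 months was 0.22, beside -0.005 for all genes (0.32 and 0.09 in the main setting). Under scaling without mitochondrially encoded genes 1 gene was lower at 21 months and 1 fell (Myh10), with 20 rising (9 calls lost). Of all tested genes 1173 rose and 120 fell. The median at 21 months was 0.21, beside -0.01 for all genes. Actb and Myo1c then had ratios of 1.0 and 0.95 at 13 months. Under both scalings the median of all genes at 21 months moved down as well, and the cause of these shifts was not tested. The contralateral filter, chosen after seeing the data, gave 14, 12 and 11 higher genes and 28 rising. Of the 11818 genes that it kept 1293 rose. The sides were compared within age, which limma held as a term; a block by replicate number does not apply, since each group holds 1 library. Depth is unknown, which leaves low values the least certain.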

Other observations

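Markers not described above were given the same treatment. Of 5 cardiac and 4 skeletal muscle markers that passed the filter 0 rose, while 2 and 1 fell, and their full lists summed to 28.8 and 40.4 RPKM (cardiac) and 79.7 and 96.7 RPKM (skeletal) at 13 months, ipsilateral first. Most of the skeletal sum was Pvalb alone, with 48.0 and 66.4 RPKM. The skeletal muscle markers Ckm, Tnni1 and Neb had at most 0.07 RPKM in any library, so the sum does not show muscle. Actn2 is also on the cardiac list. Of pituitary and pineal markers 3 of 5 fell, Tph1, Pde6g and Gngt1. These 3 passed the filter only through the 13 month contralateral library, with 10.38, 11.02 and 6.05 RPKM there. Elsewhere they had at most 1.27 RPKM, so they had to differ, and their fall rests on 1 library. The full list of 11 measured markers summed to 32.8 RPKM in that library against at most 13.0 RPKM in the others. Ependymal and choroid plexus markers fell in 4 of 7, with sums of 677 and 1229 RPKM at 13 months and 1076 and 1806 RPKM at 21 months. Oligodendrocyte markers neither rose nor fell in 10 of 10, with sums of 2103 and 2513 RPKM at 13 months and 2825 and 2364 RPKM at 21 months.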
